A study of Sus scrofa with 12 samples.

Results

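In 33 genes of the pig hypothalamus, one mRNA transcript was higher and another transcript of the same gene was lower in germ-free (GF) pigs than in pigs colonized with gut microbiota (CG). The genes were chosen by these values. A transcript was kept if it had at least 1 TPM (a level scaled for transcript length and for the total of the library) in at least 3 of the 6 long RNA libraries, and a gene was taken if the mean log2(TPM + 1) in GF pigs minus that in CG pigs was at least 2 for one kept transcript and -2 or less for another, with no overlap of the 3 GF and the 3 CG values in either. Of 19256 genes listed, 7346 had at least 2 kept transcripts and could be chosen, and the 33 members were 0.449% of them. Positions of genes are given for the Sscrofa11.1 assembly from RefSeq. The levels of the members and the differences between the groups are therefore a description and were not tested.

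The GF pigs (n = 3) had no gut microbiota. The CG pigs (n = 3) received fecal microbiota of 1 donor pig from day 3 to day 7 of life. All were born germ-free by hysterectomy from 1 Chinese Bama sow, fed sterile formula and then sterile feed in isolators shared by several piglets, and sampled at 45 days of age by the labels, which list every pig as male. The isolator and the group cannot be told apart, and only part of a hypothalamus was used for RNA.

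Most mammalian genes give rise to several mRNAs through alternative promoters, alternative splicing and alternative polyadenylation. RNA-binding proteins of the SR and hnRNP families and, in neurons and glia, of families such as RBFOX, NOVA, PTBP and MBNL steer the choice of splice sites, and nonsense-mediated decay removes mRNAs with early stop codons. The transcripts of one gene can code for different proteins, carry different untranslated ends, or code for no full-length protein. In brain tissue, the transcripts of a gene also differ between neurons, astrocytes and oligodendrocytes and between brain regions, so a bulk level mixes the choice made in each cell with the numbers of the cells.

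The libraries were not alike in their markers. The mRNA values of a library summed to 795583 to 845526 TPM in GF pigs, against 793723 to 815901 TPM in CG pigs. Markers of the hypothalamus summed to 14.6, 1172 and 1077 TPM in GF pigs, against 1180 to 2674 TPM in CG pigs, so the first GF library had next to none of them. Most of the sum in the second and the third GF pig was OXT alone. It had 0.14, 1005.5 and 870 TPM in GF pigs, against 582, 1836 and 740 TPM in CG pigs. Markers of the thalamus summed to 1752, 283 and 1468 TPM in GF pigs, against 339 to 389 TPM in CG pigs, which set the first and the third GF library apart. By limma across all genes, 9 of 18 tested hypothalamus markers fell in GF pigs and 0 rose, beside 4.93% and 1.08% of all 14641 genes. The 9 were lower in every GF pig than in any CG pig. Among them, NKX2-1 had 0.1, 5.49 and 3.11 TPM in GF pigs, against 35.4, 35.5 and 40.0 TPM in CG pigs. Of 14 thalamus markers 0 passed. At an unadjusted p under 0.05 in limma 5 of them were higher, and no share over all genes is given at that threshold. Pituitary markers reached 5634 TPM in the third CG pig, against at most 20.2 TPM in any GF pig. Oligodendrocyte markers summed to 8645 to 20064 TPM in GF pigs, against 6991 to 10216 TPM in CG pigs. Erythroid markers summed to 426 to 1189 TPM in GF pigs, against 9.80 to 18.8 TPM in CG pigs. Nearly all of that GF sum was HBB, at 601, 1172 and 420 TPM in GF pigs, against 10.0, 3.03 and 5.56 TPM in CG pigs. The erythroid markers ALAS2 (limma adjusted p = 0.9) and AHSP (limma adjusted p = 0.55) did not pass. The Y-linked gene ZFY had 0.02, 0.03 and 0 TPM in GF pigs, against 13.7, 16.1 and 0 TPM in CG pigs, so 4 of the 6 libraries had next to no Y-linked mRNA although every pig is labelled male. In bulk samples, fewer cells of a type and less RNA per cell cannot be told apart. The members were chosen with all 6 libraries, and with fewer libraries the no-overlap condition is easier to meet. How many of them stay when a library is left out is therefore no sign of stability. Without the first GF library the rule gave 40 genes, 32 of the 33 among them (without SYT7). Without the second GF library it gave 50 genes with 32 of the 33, and without the third 37 genes with 29. Without the first, the second and the third CG library in turn it gave 49, 46 and 51 genes, with 32, 29 and 30 of the 33. Leaving out both CG libraries with Y-linked mRNA left 1 CG pig, and 28 of the 33 were then among 74 genes.

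The 33 genes held 71 switching transcripts, 38 that rose and 33 that fell in GF pigs. The words rose and fell are used here for transcripts that met the rule. Of all 27945 kept transcripts, 282 (1.01%) met the rule for a rise and 322 (1.15%) for a fall. The rising ones lay in 268 genes and the falling ones in 312, so the members were 12.3% of the genes with a rising and 10.6% of the genes with a falling transcript. GFAP, PPM1G and VPS41 had 2 rising transcripts and NDRG3 had 3, while no gene had more than 1 falling transcript. The 38 rising transcripts together summed to 1557, 1792 and 1881 TPM in GF pigs, against 149, 172 and 165 TPM in CG pigs. The 33 falling transcripts summed to 136, 126 and 56.0 TPM in GF pigs, against 1272, 1209 and 1547 TPM in CG pigs. In neither sum did the groups come close to each other.

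The median difference of mean log2(TPM + 1), GF minus CG, was 2.76 over the rising and -2.93 over the falling transcripts. Of the rising transcripts 9 were listed at 0 in all CG pigs, and 5 of the falling ones in all GF pigs. Such a 0 is an estimate for one transcript and no proof of absence, and the difference then depends on the 1 TPM that was added. Without these, the medians were 2.56 over 29 rising and -2.90 over 28 falling transcripts. In ANKRD28, APP, ARID1B, GLYR1 and GRK3 the pair came closest to a replacement, with the rising transcript not above 1 TPM in any CG pig and the falling one not above 1 TPM in any GF pig.

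**Figure D1:**
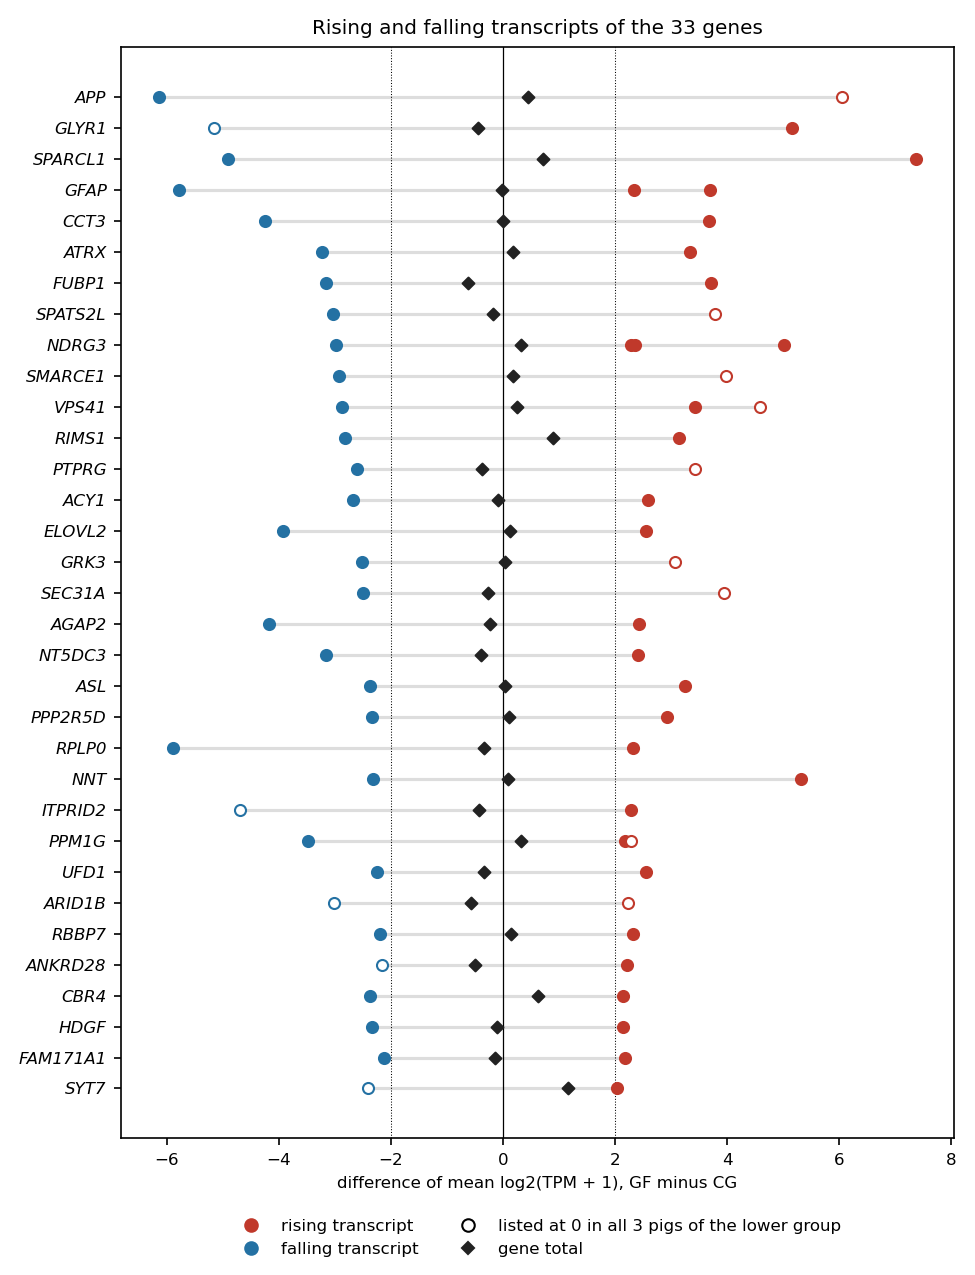
Difference of mean log2(TPM + 1), GF minus CG (n = 3 each), for the rising transcripts (red circles), the falling transcript (blue circles) and the summed gene total (black diamonds) of the 33 genes, ordered by the smaller of the rise and the fall. Open circles are transcripts listed at 0 in all 3 pigs of the lower group, whose position depends on the 1 TPM added; dotted lines mark the rule at 2 and -2. The gene totals lie between -1 and 1 in all genes but SYT7.

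The first genes described are those of astrocytes and of lipid synthesis. GFAP codes for the intermediate filament protein by which astrocytes are recognised, SPARCL1 for a secreted matrix protein that astrocytes release, and ELOVL2 for an elongase of long polyunsaturated fatty acids. In GFAP (chr12:18456268-18466594), the falling transcript ENSSSCT00000052931 had 5.14, 1.7 and 3.08 TPM in GF pigs, against 229.7, 209 and 228 TPM in CG pigs. The rising GFAP transcript ENSSSCT00000018879 had 215, 339 and 264 TPM in GF pigs, against 29.2, 83.2 and 57.8 TPM in CG pigs, and the other riser, ENSSSCT00000065356, had 16, 39.5 and 23.8 TPM in GF pigs, against 2.27, 0.35 and 0.81 TPM in CG pigs. The highest GF value of the falling transcript was thus far under the lowest CG value, while total GFAP came to 429.7 ± 118 TPM (SD) in GF pigs, against 425 ± 57.6 TPM in CG pigs. The most abundant GFAP transcript of every CG pig was therefore a minor one in every GF pig, at a like total of the gene. Astrocyte markers as a list, GFAP included, summed to 2495, 3586 and 3613 TPM in GF pigs, against 3905, 3705 and 3196 TPM in CG pigs, and 0 of the 9 tested passed an adjusted p of 0.05 in limma across all genes (0 also at an unadjusted p).

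SPARCL1 (chr8:131386804-131431427) was the most abundant gene of the set. Its riser ENSSSCT00000062820 had 499.5, 673 and 675 TPM in GF pigs, against 49.4, 0 and 0 TPM in CG pigs, a log2 difference of 7.37 ± 1.42 (SE). Its falling transcript ENSSSCT00000063769 had 0.57, 38.4 and 0 TPM in GF pigs, against 137, 38.8 and 307 TPM in CG pigs. The second GF pig and the second CG pig nearly met in the falling transcript, and SPARCL1 left the list when libraries were centred on their median or when mitochondrial genes were left out of the scaling. In ELOVL2 (chr7:7651707-7732353), ENSSSCT00000041587 had 6.35, 15.7 and 15.3 TPM in GF pigs, against 3.12, 1.39 and 0 TPM in CG pigs. The other ELOVL2 transcript, ENSSSCT00000001139, had 2.39, 0 and 0 TPM in GF pigs, against 21.9, 32.9 and 14.4 TPM in CG pigs. The third CG pig had the lowest level of both ELOVL2 transcripts among CG pigs, and neither range touched the other group's.

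**Figure D2:**
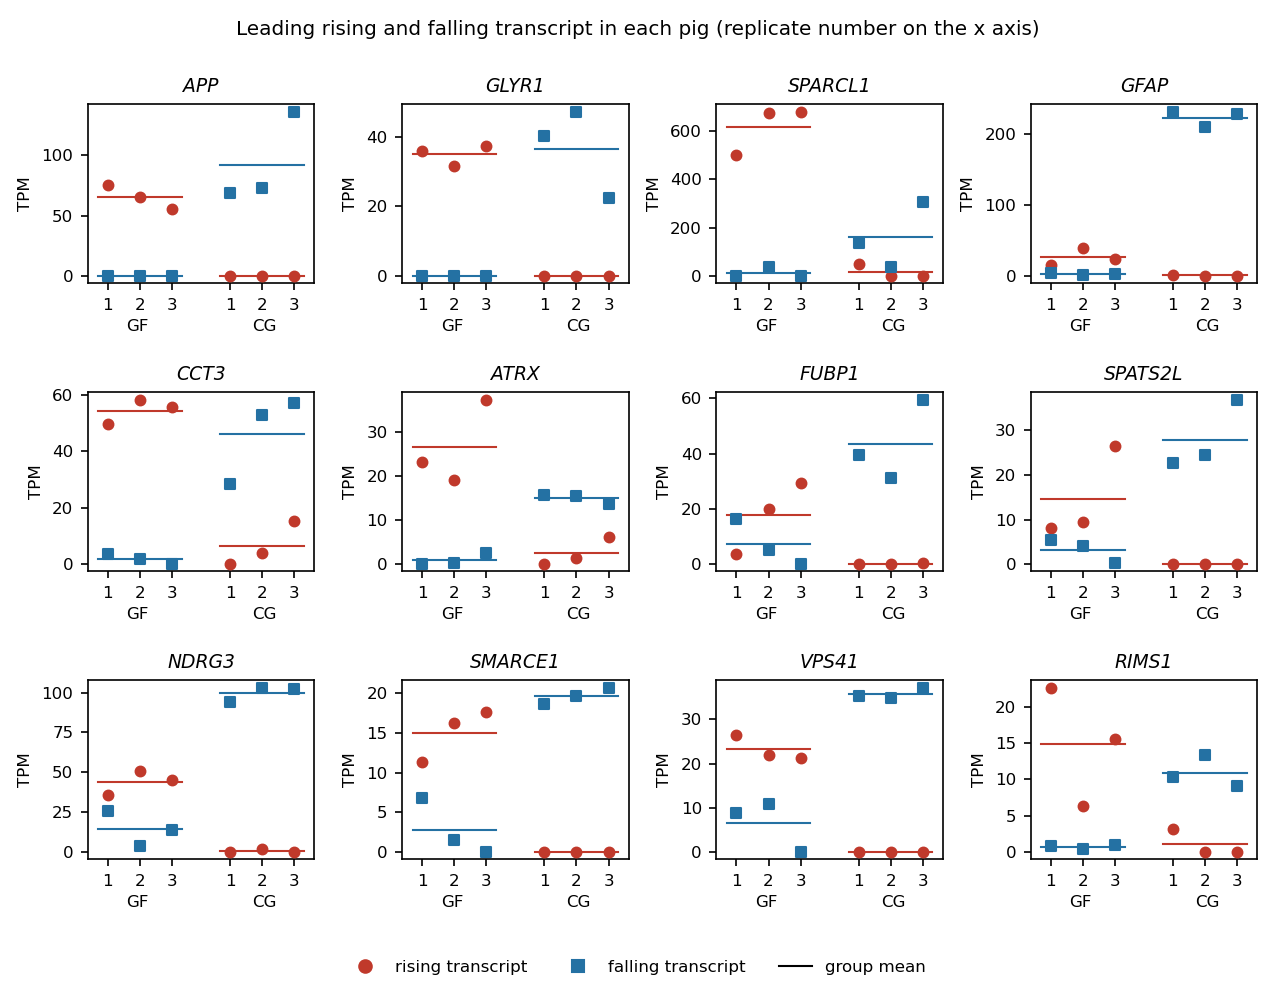
TPM of the leading rising (red circles) and falling (blue squares) transcript in each of the 3 GF and 3 CG pigs, for the 12 genes with the largest smaller difference; lines are group means and each panel has its own axis from 0. In every panel the red points are higher in GF pigs and the blue points higher in CG pigs, with the closest approach in the falling transcript of SPARCL1 (38.4 TPM in the second GF pig and 38.8 TPM in the second CG pig).

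Among the neuronal and signalling genes, APP showed an exchange that left next to nothing of either transcript in the other group. APP codes for the amyloid precursor protein, a membrane protein of neurons whose mRNA is known to be spliced differently in neurons and other cells. In APP (chr13:189434854-189716120), ENSSSCT00000013153 had 75.8, 65.5 and 55.9 TPM in GF pigs and was listed at 0 in every CG pig. Its counterpart ENSSSCT00000013154 had 0.4, 0 and 0.45 TPM in GF pigs, against 69, 72.7 and 136 TPM in CG pigs. These were minor transcripts of an abundant gene. The most abundant APP transcript, ENSSSCT00000053164, had 1271, 540 and 988 TPM in GF pigs, against 609, 640 and 548 TPM in CG pigs, and these ranges overlapped. Of total APP, the rising transcript held 5.54% ± 1.99 (SD) in GF pigs and the falling one 10.2% ± 3.61 in CG pigs.

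RIMS1 and SYT7 act at the presynaptic active zone, RIMS1 as a scaffold of vesicle release and SYT7 as a calcium sensor. In RIMS1 (chr1:51785140-52246456), ENSSSCT00000065167 had 22.5, 6.32 and 15.6 TPM in GF pigs, against 3.24, 0 and 0 TPM in CG pigs. The falling RIMS1 transcript ENSSSCT00000080177 had 0.78, 0.38 and 0.92 TPM in GF pigs, against 10.4, 13.3 and 9.04 TPM in CG pigs. Neither RIMS1 transcript overlapped between the groups. In SYT7 (chr2:9947962-10012713), ENSSSCT00000047036 had 55.5, 8.88 and 33.3 TPM in GF pigs, against 5.72, 6.41 and 4.59 TPM in CG pigs. The falling SYT7 transcript ENSSSCT00000053866 was listed at 0 in every GF pig and had 7.51, 1.92 and 5.06 TPM in CG pigs. Both rising transcripts were highest in the first GF pig, next in the third and lowest in the second, the order that the thalamus markers above also had; the part of that tissue in them was not tested. Total SYT7 came to 91.3 ± 68.3 TPM (SD) in GF pigs, against 29.9 ± 3.8 TPM in CG pigs, the only gene total of the set that differed by more than 1 on the log2 scale (1.16 ± 0.67, SE). Its groups overlapped, and SYT7 left the list without the first GF, the third GF or the third CG library.

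PTPRG is a receptor tyrosine phosphatase, AGAP2 a GTPase-activating protein of Arf signalling, GRK3 a kinase that desensitises G protein-coupled receptors, and NDRG3 a member of the NDRG family. In PTPRG (chr13:43132786-43869843), ENSSSCT00000084162 had 4.76, 10.5 and 17.8 TPM in GF pigs and was listed at 0 in every CG pig. The falling PTPRG transcript ENSSSCT00000012568 had 6.94, 3.67 and 0.01 TPM in GF pigs, against 16.9, 19.9 and 21.5 TPM in CG pigs. The third GF pig was at the far end of both, with the most of the riser and nearly none of the faller, and without its library PTPRG left the list. In AGAP2 (chr5:23015777-23035943), ENSSSCT00000000486 had 26.3, 17.4 and 32.5 TPM in GF pigs, against 1.97, 5.12 and 5.03 TPM in CG pigs. The falling AGAP2 transcript ENSSSCT00000039628 had 0, 16 and 0.04 TPM in GF pigs, against 44.2, 48.2 and 46.7 TPM in CG pigs. The second GF pig thus kept part of a transcript that the other GF pigs nearly lacked. Another AGAP2 transcript, ENSSSCT00000041217, was the most abundant in all 6 libraries with 105, 59.9 and 105 TPM in GF pigs, against 90.1, 101 and 77.4 TPM in CG pigs.

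In GRK3 (chr14:43305255-43445626), ENSSSCT00000059349 had 11.3, 6.39 and 5.42 TPM in GF pigs and was listed at 0 in every CG pig. The falling GRK3 transcript ENSSSCT00000081848 had 0.3, 0 and 0 TPM in GF pigs, against 2.91, 10.2 and 4.59 TPM in CG pigs. Both were minor beside ENSSSCT00000053337, which had 37.7, 24.0 and 28.9 TPM in GF pigs, against 29.8, 27.3 and 35.6 TPM in CG pigs. NDRG3 (chr17:39905957-39987754) had more rising transcripts than any other member. Its largest rise was that of ENSSSCT00000053725, which had 36, 50.9 and 45.2 TPM in GF pigs, against 0, 1.64 and 0 TPM in CG pigs. The more abundant riser ENSSSCT00000042701 had 87.2, 54.7 and 88.7 TPM in GF pigs, against 13.8, 10.5 and 18.5 TPM in CG pigs. Both were higher in every GF pig than in any CG pig. The third, ENSSSCT00000038712, had 6.52, 10.5 and 16.7 TPM in GF pigs, against 0, 1.71 and 3.95 TPM in CG pigs. Against these stood 1 falling transcript, ENSSSCT00000038533, which had 26, 4.09 and 13.9 TPM in GF pigs, against 94, 103 and 102 TPM in CG pigs. The falling transcript was the most abundant NDRG3 transcript in every CG pig and ENSSSCT00000042701 the most abundant in every GF pig. Total NDRG3 came to 236 ± 34.3 TPM (SD) in GF pigs, against 188 ± 4.18 TPM in CG pigs, with no overlap.

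Chromatin and nucleic acid binding proteins were 7 of the 33 genes. Roles were assigned after the members were known, and no share of such genes over all genes is given. ATRX is a chromatin remodeller of heterochromatin, ARID1B and SMARCE1 are subunits of the BAF (SWI/SNF) remodelling complex, GLYR1 binds nucleosomes, RBBP7 is a histone-binding subunit of several chromatin complexes, HDGF is a DNA-binding growth factor, and FUBP1 binds single-stranded DNA and RNA and is known from the control of MYC and of splicing. In GLYR1 (chr3:37555357-37593492), ENSSSCT00000088787 had 35.9, 31.5 and 37.2 TPM in GF pigs, against 0, 0.01 and 0 TPM in CG pigs. The falling GLYR1 transcript ENSSSCT00000080506 was listed at 0 in every GF pig and had 40.0, 46.9 and 22.4 TPM in CG pigs. This pair exchanged nearly one for one, and total GLYR1 came to 88 ± 6.04 TPM (SD) in GF pigs, against 121 ± 9.58 TPM in CG pigs. A further GLYR1 transcript, ENSSSCT00000041735, had 29.9, 28.4 and 32.5 TPM in GF pigs, against 27.9, 26.4 and 38.9 TPM in CG pigs.

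In ATRX (chrX:61584028-61872341), ENSSSCT00000013595 had 23.1, 19.1 and 37.1 TPM in GF pigs, against 0, 1.43 and 6.27 TPM in CG pigs, a log2 difference of 3.34 ± 0.68 (SE). The falling ATRX transcript ENSSSCT00000082719 had 0, 0.37 and 2.54 TPM in GF pigs, against 15.6, 15.5 and 13.7 TPM in CG pigs. The riser was above the faller in every GF pig and below it in every CG pig. In RBBP7 (chrX:13293278-13317074), ENSSSCT00000075276 had 8.33, 5.21 and 5.69 TPM in GF pigs, against 0, 2.1 and 0 TPM in CG pigs. The falling RBBP7 transcript ENSSSCT00000068173 had 3.36, 2.72 and 0 TPM in GF pigs, against 10.6, 9.21 and 12.1 TPM in CG pigs. ATRX and RBBP7 are the X-linked members, and the third CG pig was the one without ZFY. That pig had the highest CG value of the rising ATRX and the falling RBBP7 transcript and the lowest of the falling ATRX transcript, and the part of sex in these values was not tested. Total ATRX came to 37.7 ± 12.8 TPM (SD) in GF pigs, against 32.2 ± 0.93 TPM in CG pigs.

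In FUBP1 (chr6:135281474-135319055), ENSSSCT00000055676 had 3.72, 20.0 and 29.5 TPM in GF pigs, against 0.03, 0.02 and 0.27 TPM in CG pigs. The falling FUBP1 transcript ENSSSCT00000053943 had 16.3, 5.12 and 0.03 TPM in GF pigs, against 39.6, 31.4 and 59.3 TPM in CG pigs. The GF pigs differed widely here, since the pig with the least of the riser had the most of the faller. FUBP1 totals were 39.8 ± 7.11 TPM (SD) in GF pigs, against 62.5 ± 17.7 TPM in CG pigs, without overlap. SMARCE1 (chr12:21784410-21807170) had the same arrangement in its GF pigs. Its riser ENSSSCT00000049187 had 11.3, 16.3 and 17.6 TPM in GF pigs and was listed at 0 in every CG pig. The falling SMARCE1 transcript ENSSSCT00000019017 had 6.79, 1.56 and 0 TPM in GF pigs, against 18.6, 19.7 and 20.6 TPM in CG pigs. In ARID1B (chr1:9791627-10227381), the other BAF subunit, ENSSSCT00000004493 had 3.15, 4.23 and 3.8 TPM in GF pigs and was listed at 0 in every CG pig, and ENSSSCT00000058325 was listed at 0 in every GF pig and had 5.46, 8.81 and 7.19 TPM in CG pigs. Both ARID1B transcripts were at low levels, and a transcript that did not switch, ENSSSCT00000043067, had 22.8, 20.5 and 18.1 TPM in GF pigs, against 35.7, 28.9 and 40.6 TPM in CG pigs. In HDGF (chr4:93341081-93351809), ENSSSCT00000072601 had 18.2, 17.1 and 17 TPM in GF pigs, against 4.67, 1.32 and 4.57 TPM in CG pigs. The falling HDGF transcript ENSSSCT00000086116 had 5.68, 4.52 and 2.84 TPM in GF pigs, against 28, 18.8 and 30.3 TPM in CG pigs. Both switched beneath a main HDGF transcript, ENSSSCT00000007085, of 94.0, 104 and 78.9 TPM in GF pigs, against 91.4, 83.9 and 109 TPM in CG pigs.

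Genes of protein synthesis, folding and trafficking followed. CCT3 is a subunit of the TRiC chaperonin that folds actin and tubulin, RPLP0 a protein of the ribosomal stalk, SEC31A part of the COPII coat of vesicles that leave the endoplasmic reticulum, VPS41 a subunit of the HOPS complex of late endosomes, and UFD1 a cofactor of the VCP segregase in protein degradation. In CCT3 (chr4:93733967-93753340), ENSSSCT00000071071 had 49.7, 58 and 55.6 TPM in GF pigs, against 0, 3.96 and 15.1 TPM in CG pigs. The falling CCT3 transcript ENSSSCT00000047930 had 3.59, 2.0 and 0 TPM in GF pigs, against 28.6, 53 and 57 TPM in CG pigs. The gain of the one and the loss of the other were of like size, and total CCT3 was 211 ± 14.7 TPM (SD) in GF pigs, against 214 ± 48.5 TPM in CG pigs. In RPLP0 (chr14:40219196-40223943), ENSSSCT00000051848 had 36.3, 65.3 and 40.5 TPM in GF pigs, against 8.01, 7.92 and 9.31 TPM in CG pigs. The falling RPLP0 transcript ENSSSCT00000049763 had 21.1, 0 and 0 TPM in GF pigs, against 169, 184 and 142 TPM in CG pigs. Ribosomal protein genes have many near-identical copies in mammalian genomes, so reads of RPLP0 may be shared with them and its values are uncertain.

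VPS41 (chr18:55293655-55466628) had 2 rising transcripts. The first, ENSSSCT00000079523, had 26.4, 22 and 21.3 TPM in GF pigs and was listed at 0 in every CG pig. The other, ENSSSCT00000074380, had 23.6, 17.1 and 17.5 TPM in GF pigs, against 1.46, 0 and 1.72 TPM in CG pigs. The falling VPS41 transcript ENSSSCT00000061000 had 8.9, 10.8 and 0.09 TPM in GF pigs, against 35.3, 34.9 and 37.1 TPM in CG pigs. CG pigs were close to each other in all 3, and among GF pigs the third stood apart in the falling one. In SEC31A (chr8:135431965-135495124), ENSSSCT00000064796 had 15.5, 15.3 and 12.8 TPM in GF pigs and was listed at 0 in every CG pig. The falling SEC31A transcript ENSSSCT00000049135 had 1.84, 7.82 and 4.89 TPM in GF pigs, against 28.3, 22.9 and 36.8 TPM in CG pigs. SEC31A kept the same most abundant transcript, ENSSSCT00000010124, at 64.9, 55.8 and 57.0 TPM in GF pigs, against 59.7, 60.3 and 75.6 TPM in CG pigs. That main transcript overlapped between the groups. In UFD1 (chr14:51113858-51132820), ENSSSCT00000064766 had 2.47, 9.18 and 7.03 TPM in GF pigs, against 0, 0.11 and 0.25 TPM in CG pigs. The falling UFD1 transcript ENSSSCT00000051728 had 1.57, 1.75 and 4.72 TPM in GF pigs, against 14.9, 16.1 and 15.2 TPM in CG pigs. CG pigs were within about 1 TPM of each other in the falling one. In SPATS2L (chr15:103879416-104060525), ENSSSCT00000047765 had 8.04, 9.45 and 26.6 TPM in GF pigs and was listed at 0 in every CG pig. The falling SPATS2L transcript ENSSSCT00000056854 had 5.42, 4.11 and 0.27 TPM in GF pigs, against 22.6, 24.4 and 36.7 TPM in CG pigs. The third GF pig again had the most of the riser and the least of the faller.

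Phosphatase genes contributed a catalytic subunit of the PP2C family, PPM1G, a regulatory B56 subunit of PP2A, PPP2R5D, and ANKRD28, a regulatory subunit of PP6. In PPM1G (chr3:111748012-111770868), ENSSSCT00000063374 had 3.22, 3.51 and 5.05 TPM in GF pigs and was listed at 0 in every CG pig. The more abundant PPM1G riser ENSSSCT00000056355 had 22.6, 25.1 and 27.7 TPM in GF pigs, against 0.13, 9.55 and 15.2 TPM in CG pigs. The falling PPM1G transcript ENSSSCT00000068089 had 1.66, 0 and 0 TPM in GF pigs, against 24.6, 11.6 and 10.3 TPM in CG pigs. In CG pigs the abundant riser and the faller ran opposite, with the first CG pig nearly without the riser and highest in the faller. In PPP2R5D (chr7:38055589-38078429), ENSSSCT00000070779 had 46, 34.5 and 54.1 TPM in GF pigs, against 1.76, 16.3 and 3.37 TPM in CG pigs. The falling PPP2R5D transcript ENSSSCT00000046677 had 3.63, 7.03 and 9.62 TPM in GF pigs, against 41.6, 32.3 and 35.1 TPM in CG pigs. The second CG pig had several times the level of the riser seen in the other CG pigs. In ANKRD28 (chr13:2922855-3135743), ENSSSCT00000043480 had 5.21, 3.53 and 2.56 TPM in GF pigs, against 0, 0.01 and 0 TPM in CG pigs. The falling ANKRD28 transcript ENSSSCT00000043002 was listed at 0 in every GF pig and had 3.53, 5.02 and 2.23 TPM in CG pigs. ANKRD28 had the lowest total of the set, at 18.9 ± 4.95 TPM (SD) in GF pigs, against 27 ± 4.19 TPM in CG pigs.

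Metabolic enzymes included NNT, the transhydrogenase of the inner mitochondrial membrane that makes NADPH, ASL of the urea cycle, the aminoacylase ACY1 and the carbonyl reductase CBR4, which acts in mitochondrial fatty acid synthesis. In NNT (chr16:28157192-28248732), ENSSSCT00000049053 had 47.9, 32.1 and 44.2 TPM in GF pigs, against 0.03, 0 and 0.11 TPM in CG pigs. The falling NNT transcript ENSSSCT00000046689 had 9.57, 9.9 and 7.67 TPM in GF pigs, against 54.2, 50.9 and 41.6 TPM in CG pigs. The rising NNT transcript was the most abundant one in every GF pig and next to absent in every CG pig, while total NNT came to 63.4 ± 11.3 TPM (SD) in GF pigs, against 59.3 ± 5.27 TPM in CG pigs. In ACY1 (chr13:34114119-34119684), ENSSSCT00000062795 had 22.7, 11.4 and 13.2 TPM in GF pigs, against 3.69, 3.04 and 0 TPM in CG pigs. The falling ACY1 transcript ENSSSCT00000027267 had 0.45, 0.86 and 3.68 TPM in GF pigs, against 13.3, 12.1 and 16.7 TPM in CG pigs. ACY1 was also the only member with a transcript in the lncRNA table, at 0.07, 0.27 and 0.38 TPM in GF pigs, against 1.24, 0.40 and 0.87 TPM in CG pigs.

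In CBR4 (chr14:20621960-20642351), ENSSSCT00000084941 had 17.7, 16.3 and 24.1 TPM in GF pigs, against 3.28, 5.88 and 2.22 TPM in CG pigs. The falling CBR4 transcript ENSSSCT00000082083 had 0.4, 0.21 and 0.53 TPM in GF pigs, against 8.63, 3.6 and 7.01 TPM in CG pigs. Total CBR4 was 32.4 ± 6.62 TPM (SD) in GF pigs, against 20.6 ± 3.24 TPM in CG pigs, without overlap, but the gene left the list without the third GF or the third CG library. In ASL (chr3:16637481-16646869), ENSSSCT00000008483 had 14, 13.3 and 18 TPM in GF pigs, against 2.22, 0 and 0.49 TPM in CG pigs. The falling ASL transcript ENSSSCT00000087710 had 2.46, 0 and 0 TPM in GF pigs, against 8.39, 9.31 and 4.0 TPM in CG pigs. The first GF pig was the only one with ASL faller above 0. In NT5DC3 (chr5:80625669-80692481), ENSSSCT00000023398 had 6.61, 6.68 and 16.3 TPM in GF pigs, against 0, 3.3 and 0.6 TPM in CG pigs. The falling NT5DC3 transcript ENSSSCT00000091207 had 0, 3.17 and 0 TPM in GF pigs, against 11.7, 11.2 and 18.1 TPM in CG pigs. The second GF pig alone had NT5DC3 faller above 0. In ITPRID2, ENSSSCT00000046527 had 26.7, 18.3 and 39.7 TPM in GF pigs, against 11.07, 0 and 14.3 TPM in CG pigs. The falling ITPRID2 transcript ENSSSCT00000061905 was listed at 0 in every GF pig and had 11.9, 30.1 and 41.8 TPM in CG pigs. The ITPRID2 riser thus came close between the groups, at 18.3 TPM in the second GF pig and 14.3 TPM in the third CG pig, while its faller was far apart.

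How much of each gene the switching transcripts made up was given by their share of the gene's summed TPM, which does not move with the scaling of a library. Over the 33 genes, the rising transcripts held a median of 30.9% of the gene in GF pigs and 2.39% in CG pigs, and the falling transcript a median of 2.14% in GF pigs and 30.9% in CG pigs. Together the switching transcripts held a median of 38.3% in GF pigs and 35.9% in CG pigs. The shares of riser and faller had no overlap between the groups in 33 of 33 genes, beside 38.9% of all 7346 genes that had one share higher and another lower in GF pigs without overlap; the rule had used the same contrast, so nothing is read from this count. The rising share in GF pigs went up to 79.4% in PPM1G and down to 5.54% in APP, and the falling share in CG pigs went up to 82.2% in NNT.

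In NNT, ATRX, GFAP, NDRG3 and ACY1 a rising transcript was the most abundant of its gene in every GF pig and the falling one in every CG pig. In SMARCE1 and VPS41 the falling one led in CG pigs and another transcript in GF pigs, and in CBR4 the rising one led in GF pigs and another in CG pigs. Counted together, the most abundant transcript was one in every GF pig and another in every CG pig in 8 of the 33 genes, beside 3.88% of the 7346 genes. This too follows in part from the rule. In NNT the rising transcript held 65.2% ± 6.97 in GF pigs and 0.08% ± 0.11 in CG pigs (SD) and the falling one 14.6% ± 3.32 in GF pigs and 82.2% ± 4.88 in CG pigs (SD). In ATRX the rising share was 69.9% ± 2.64 in GF pigs and 7.85% ± 10.1 in CG pigs (SD) and the falling share 2.05% ± 2.51 in GF pigs and 46.4% ± 4.08 in CG pigs (SD). These pairs therefore took most of the gene in one group or the other. In 14 genes neither switching transcript was the most abundant in any library, and 13 genes had the same most abundant transcript in all 6. APP, AGAP2, CCT3, HDGF, PPP2R5D and SEC31A belonged to the 14, so their switch took place beneath a main transcript.

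**Figure D3:**
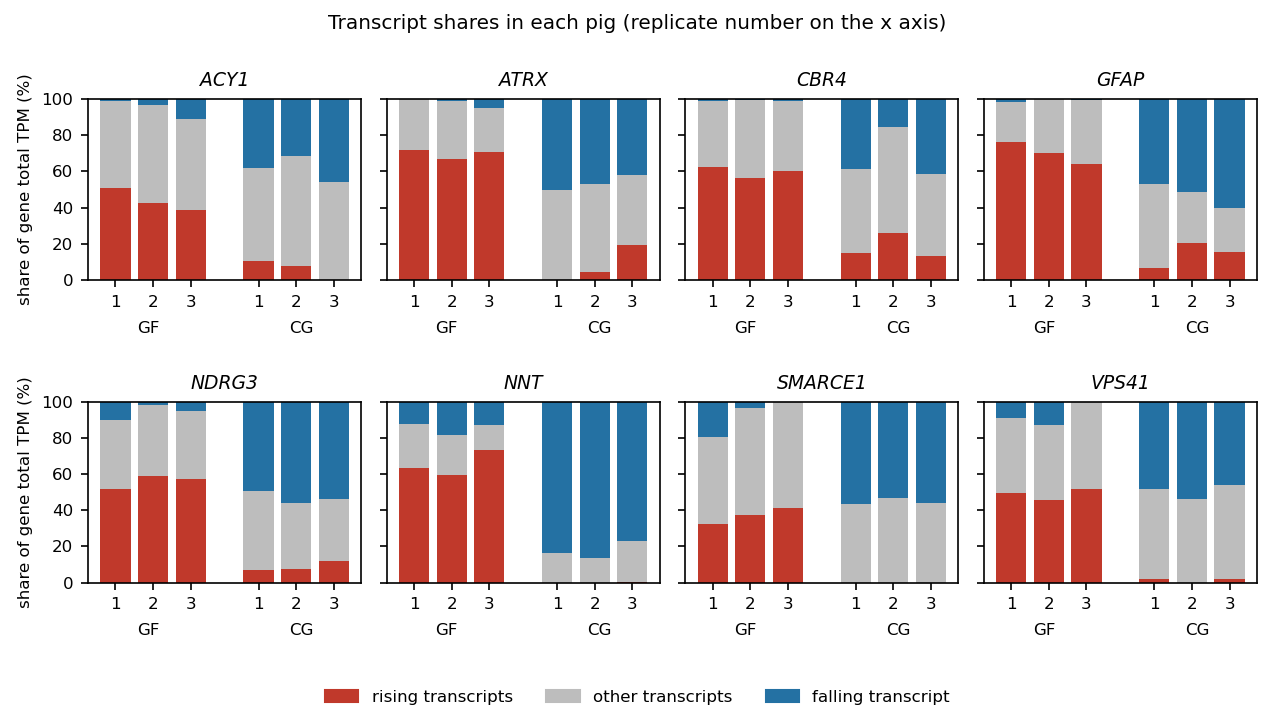
Share of the gene's summed TPM (%) held by the rising (red), other (grey) and falling (blue) transcripts in each of the 3 GF and 3 CG pigs, for the 8 genes whose most abundant transcript was one in every GF pig and another in every CG pig. In NNT the falling transcript had a mean share of 82.2% in CG pigs, and in each of the 8 panels the red part is larger in every GF pig.

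The gene totals moved little. They differed by less than 1 on the log2(TPM + 1) scale in 32 of 33 genes, beside 96.7% of all genes with at least 2 kept transcripts, and by less than 0.5 in 26 of 33, beside 77.4%. The median size of the difference was 0.27 over the members and 0.28 over all such genes, so in size the members' totals moved as those of other genes did. Totals had no overlap between the groups in 11 of 33 members, beside 36.9% of all such genes. Of the 11, SPARCL1, NDRG3, RIMS1, PPM1G, RBBP7 and CBR4 were higher and GLYR1, FUBP1, SEC31A, UFD1 and ARID1B lower in GF pigs. The other 86 kept transcripts of the members mostly stayed within 1 on the log2 scale, as 67 of them did, with 11 at 1 or above and 8 at -1 or below. The most abundant of the others moved by under 1 in 31 of the 33 genes. Summed, the switching transcripts of a gene moved by under 1 in 30 genes, the exceptions being SPARCL1 (2.24), RPLP0 (-1.68) and SYT7 (1.25). The other transcripts are by definition those that did not meet the rule. No shares over all kept transcripts or genes are given beside the counts of others and of summed transcripts, so nothing is read from them.

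The members had a median of 6 annotated transcripts (3 to 10), beside 3 over all 7346 genes that could be chosen, and a median of 4 kept ones (3 to 8), beside 2. The rule needs a transcript in each direction, and a gene with more transcripts had more that could meet it. The median total over all libraries was 60.6 TPM over the members, beside 31.8 TPM over the 7346 genes. The 195 annotated transcripts of the members included 157 kept ones, and a transcript present in one group alone could pass that filter. The 32 genes with a position in RefSeq lay on 17 chromosomes, with at most 4 on one (chromosomes 13 and 14) and 2 on X.

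The pig that lay nearest to the other group varied. For each of the 71 switching transcripts, the pig of a group closest to the other group was the first GF pig in 32, the second in 20 and the third in 14, with 5 ties. Among CG pigs it was the first in 19, the second in 23 and the third in 20, with 9 ties. The first GF pig was thus the nearest to CG pigs most often. These transcripts were chosen by the same values, and no such count over all kept transcripts is given. Nothing is therefore read from it. In limma across all 27945 kept transcripts, 32 of the 38 rising transcripts passed an adjusted p of 0.05 with a difference of at least 1, beside 1.86% of all kept transcripts, and 27 of the 33 falling ones did, beside 3.95%. Both directions passed, with a difference of at least 2, in 23 of the 33 genes. Among all 7346 genes with at least 2 kept transcripts, these same 23 were the only ones (0.313%), so that share is no background for the members. The rule had used this contrast, and these counts are given for completeness.

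The rule cuts a continuous range. At a difference of 1 in place of 2 it gave 228 genes, at 1.5 it gave 87, at 2.5 it gave 16, and at 3 it gave 8 (APP, ATRX, CCT3, FUBP1, GFAP, GLYR1, SPARCL1 and SPATS2L). Just inside were FAM171A1 and SYT7. In FAM171A1 (chr10:46449781-46601093), ENSSSCT00000012091 had 15.8, 18.7 and 18.5 TPM in GF pigs, against 3.97, 6.57 and 0.89 TPM in CG pigs, a log2 difference of 2.17 ± 0.48 (SE). The falling FAM171A1 transcript ENSSSCT00000063062 had 0.58, 0.28 and 0.73 TPM in GF pigs, against 3.6, 8.17 and 5.77 TPM in CG pigs, a difference of -2.12 ± 0.31 (SE). The groups overlapped in neither transcript. FAM171A1 left the list without the second GF, the second CG or the third CG library. Of the others, ANKRD28, HDGF and ITPRID2 left it without the second CG, NT5DC3 without the first CG and RBBP7 without the third GF library, and ANKRD28, ASL, ATRX, CCT3 and HDGF without both CG libraries with Y-linked mRNA. With centred libraries ANKRD28, FAM171A1 and RBBP7 left it too. Just outside were PLAAT3 and LSM7. PLAAT3, a phospholipase, had a riser of 16.3, 74.3 and 51.6 TPM in GF pigs, against 0.04, 0.03 and 0.30 TPM in CG pigs. Its falling transcript had 12.4, 10.2 and 3.69 TPM in GF pigs, against 35.1, 33.5 and 35.2 TPM in CG pigs, a difference of -1.998. LSM7, a subunit of the LSM ring of mRNA decay and splicing, had a riser of 17.6, 23.0 and 21.0 TPM in GF pigs, against 4.17, 5.10 and 4.02 TPM in CG pigs, a difference of 1.98. Its falling transcript was listed at 0 in every GF pig and had, in every CG pig, the same TPM as its riser. PLAAT3 and LSM7 thus each missed the rule by 1 of their transcripts.

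Genes that act on the choice of transcripts were not used by the rule and were tested. Their lists were, however, chosen with earlier results of these data known, so the test is not independent of them. The 6 lists cover neural splicing regulators, SR proteins and their kinases, hnRNP proteins, the spliceosome core, cleavage and polyadenylation, and nonsense-mediated decay. Of their 139 tested genes, 9 rose and 9 fell in GF pigs at an adjusted p under 0.05 (limma on summed gene TPM, adjusted over all 14641 genes), and 121 did not pass. Over all genes, 1.08% rose and 4.93% fell, and 2.89% did either by at least 1 on the log2 scale. The median difference was -0.19 over the 139 genes and -0.23 over all genes tested, so the median gene was slightly lower in GF pigs. With every library centred on its median, 20 of the listed genes rose and 1 fell, and without mitochondrial genes in the scaling 9 rose and 3 fell, so the balance of the directions depends on the scaling. Most of these calls did not pass with 1 library left out, except when it was the second GF library. In turn without the first, the second and the third GF library, 1, 9 and 1 of the listed genes rose and 0, 11 and 1 fell. In turn without the first, the second and the third CG library, 0, 0 and 1 rose and none fell. At an unadjusted p under 0.05 in limma, these fits of 5 libraries had 17 to 26 listed genes higher and 33 to 42 lower in GF pigs. With all libraries 25 were higher and 44 lower. No share over all genes is given at an unadjusted p. Nothing is therefore read from these unadjusted counts or from those of the single lists that follow. The marker sums of hypothalamus and thalamus given above also differ between the groups, and their part in these changes was not tested.

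The rises were mostly among hnRNP proteins, which bind nascent RNA and often repress splice sites. On that list 6 of 23 tested genes rose and 0 fell, beside 1.08% and 4.93% of all genes, and the median difference was 0.44. At an unadjusted p under 0.05 in limma 13 were higher and 2 lower, without a share over all genes beside them. HNRNPD, which also binds AU-rich mRNA, had 128, 142 and 152 TPM in GF pigs, against 64.0, 62.8 and 59.4 TPM in CG pigs (log2 difference 1.17 ± 0.12 SE, limma adjusted p = 0.0092). HNRNPA2B1 had 326, 395 and 423 TPM in GF pigs, against 188, 167 and 208 TPM in CG pigs (1.02 ± 0.15, limma adjusted p = 0.029). Both were higher in every GF pig than in any CG pig. HNRNPH3 had 107, 123 and 125 TPM in GF pigs, against 60.9, 52.4 and 75.5 TPM in CG pigs (0.91 ± 0.16, limma adjusted p = 0.035). HNRNPM, HNRNPU and HNRNPUL2 were the others that rose.

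Among neural splicing regulators, 1 of 29 tested genes rose and 3 fell, with a median of -0.44. MBNL1, which shifts splicing from fetal to adult forms in muscle and brain, had 69.5, 64.2 and 76.2 TPM in GF pigs, against 99.0, 109 and 112 TPM in CG pigs (-0.60 ± 0.12, limma adjusted p = 0.044). CELF5 had 38.7, 39.1 and 61.6 TPM in GF pigs, against 82.9, 97.6 and 85.1 TPM in CG pigs (-0.95 ± 0.20, limma adjusted p = 0.047). Neither gene had overlapping groups, and MBNL2 was the other gene that fell.

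SR proteins mostly favour the use of exons. Of 23 tested on their list, 0 rose and 2 fell, with a median of -0.20. At an unadjusted p under 0.05 in limma 0 were higher and 7 lower, without a share over all genes beside them. SRSF6 had 56.4, 70.1 and 71.6 TPM in GF pigs, against 118, 126 and 124 TPM in CG pigs (-0.89 ± 0.13, limma adjusted p = 0.029). SRSF2 had 75.6, 85.1 and 75.9 TPM in GF pigs, against 125, 143 and 127 TPM in CG pigs (-0.74 ± 0.12, limma adjusted p = 0.032). SRRM2, a scaffold of nuclear speckles, did not pass (-0.50 ± 0.12, limma adjusted p = 0.054). In the spliceosome core 2 of 28 rose and 2 fell, with a median of -0.11. U2AF1, which recognises the 3′ splice site, differed by 0.80 ± 0.14 (limma adjusted p = 0.037), PRPF31 of the U4/U6 particle by 0.76 ± 0.14 (limma adjusted p = 0.041) and the Sm protein SNRPD2 by -0.76 ± 0.12 (limma adjusted p = 0.029).

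In cleavage and polyadenylation, where CPSF6 and its partner CPSF7 bind upstream of the cut, 0 of 20 rose and 1 fell, with a median of -0.23. Here 1 was higher and 8 lower at an unadjusted p under 0.05 in limma, again without a share over all genes. CPSF6 had 36.8, 45.4 and 43.1 TPM in GF pigs, against 75.7, 95.6 and 131 TPM in CG pigs (-1.22 ± 0.21, limma adjusted p = 0.033). PABPN1 (-0.44 ± 0.11, limma adjusted p = 0.060) and CPSF7 (-0.51 ± 0.13, limma adjusted p = 0.064) did not pass. In nonsense-mediated decay 0 of 16 rose and 1 fell, with a median of -0.18. On this list 3 were higher and 5 lower at an unadjusted p under 0.05 in limma, also without a share over all genes. RNPS1, which binds near exon junctions, had 114, 122 and 129 TPM in GF pigs, against 172, 174 and 185 TPM in CG pigs (-0.54 ± 0.11, limma adjusted p = 0.046). UPF3A (0.64 ± 0.15, limma adjusted p = 0.054) and the kinase SMG1 (-0.54 ± 0.16, limma adjusted p = 0.079) did not pass. No member of the 33 is on these lists.

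The regulators' own transcripts also moved in both directions. Of 349 kept transcripts of the 6 lists, 21 rose and 32 fell at an adjusted p under 0.05 (limma across all kept transcripts), beside 2.29% and 5.25% of all. Of the 99 listed genes with at least 2 kept transcripts, 4 had a transcript in each direction, beside 1.84% of the 7346 genes. SON, a speckle protein required for splicing, had ENSSSCT00000075153 at 6.24, 8.30 and 7.79 TPM in GF pigs and listed at 0 in every CG pig. Its ENSSSCT00000060699 had 3.47, 4.68 and 4.06 TPM in GF pigs, against 15.5, 12 and 14 TPM in CG pigs. SON thus showed the pattern of the members at a smaller fall.

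In MBNL2, ENSSSCT00000076838 had 6.32, 12.8 and 15.5 TPM in GF pigs, against 0, 0 and 1.33 TPM in CG pigs. A falling MBNL2 transcript, ENSSSCT00000054948, had 14.2, 10.5 and 10.8 TPM in GF pigs, against 30.2, 35.9 and 30.9 TPM in CG pigs. MBNL2 thus had a riser nearly absent from CG pigs. In HNRNPA2B1, ENSSSCT00000059368 had 240 to 310 TPM in GF pigs, against 54.6 to 72.3 TPM in CG pigs. Its falling ENSSSCT00000063211 had 2.84, 4.22 and 1.81 TPM in GF pigs, against 7.09, 14.3 and 9.21 TPM in CG pigs. SF3B1, the U2 snRNP protein that holds the branch point, was the other gene, with ENSSSCT00000054674 at 25.3, 36.9 and 32.0 TPM in GF pigs, against 18.9, 15.2 and 16.3 TPM in CG pigs, and ENSSSCT00000058408 at 16.5, 16.8 and 31.1 TPM in GF pigs, against 45.2, 61.8 and 59.6 TPM in CG pigs. In none of these transcripts did the GF and CG ranges overlap.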

How the data were processed

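Long RNA of the hypothalamus was sequenced in 3 GF and 3 CG pigs. The deposited values are TPM of annotated transcripts, which the authors made from reads aligned to Sscrofa11.1; the paper names TopHat, Cufflinks and HTSeq, and the labels name fastp, HISAT and RSEM, so how reads shared by the transcripts of a gene were divided among them is uncertain. The mRNA table lists 47559 transcripts of 19256 genes, and the values of a gene were summed for its total and for shares. TPM keep no read depth, so no counting error is given, and the study's count-based test was replaced by limma-trend on log2(TPM + 1), with Benjamini-Hochberg adjustment over all kept transcripts or genes. Genes needed a summed TPM of at least 1 in at least 3 libraries. SE values come from that fit. It was run on simulated data with independent noise for each transcript or gene. That setting has no differences shared across a library, so it cannot vouch for the SE or p-values here. Single values of 3 against 3 pigs could not reach an exact two-sided p under 0.1. The labels do not give isolators, and p-values measure the spread between these pigs of 1 sow. An adjusted p under 0.05 is called rose or fell for listed genes.

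The members and lists were chosen with earlier results of these data known, and roles were assigned to the members afterwards. The naming rule took the 25 members with the largest smaller difference, the 2 genes just inside and just outside the rule, and up to 3 genes of each regulator list by p. One gene that the rule covers is not reported here. UFD1, ARID1B, RBBP7, ANKRD28, CBR4 and HDGF, which rank after the 25, were named to account for every member, and HNRNPM, HNRNPU, HNRNPUL2, MBNL2, SON and SF3B1 after their values were seen. Symbols came from the table for 30 members and from a table of gene names for ACY1, ASL and NDRG3. Positions are those of RefSeq for Sscrofa11.1, matched by symbol for 32 members. Of the lncRNA table, only transcripts of member genes were read. Small RNA libraries were not used here.

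R 4.3.3 with limma 3.58.1 and Python 3.11.15 with pandas 2.3.3, numpy 2.4.6 and matplotlib 3.10.9 were used. Alternatives were a pseudocount of 0.1, other filters and thresholds, libraries centred on their median, 13 mitochondrial genes left out of the scaling, the replicate number as a block, each library left out and, chosen after seeing the data, both CG libraries with Y-linked mRNA left out.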

Additional observations from a re-analysis of the deposited data

How the results depend on the processing

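Of 714 values of the members' leading transcripts under the alternatives, 73 moved by more than the spread between pigs. Their direction, and that of the shares, was set by how the members were chosen and is no sign of stability. The count of genes by the rule was 79 with a pseudocount of 0.1, 228 at a log2 difference of 1 and 8 at 3, and 37 to 51 with 1 library left out. Without both CG libraries with Y-linked mRNA it was 74. With libraries left out, 31 to 33 gene totals of the members lay within 1 on the log2 scale. Called transcripts, 520 higher and 1103 lower in GF pigs, came to 311 and 495 without a filter. With centred libraries 688 were higher and 493 lower, and without mitochondrial genes 585 and 663. Leaving out 1 library gave 170 to 560 higher and 283 to 882 lower. Called genes, 69 higher and 354 lower, came to 51 and 141 without a filter, 122 and 97 with centred libraries, and 65 and 115 without mitochondrial genes. Leaving out 1 library gave 14 to 192 higher and 8 to 525 lower. Of the regulator genes, 5 rose and 4 fell without a filter, 20 rose and 1 fell with centred libraries, 9 rose and 3 fell without mitochondrial genes, and 0 to 9 rose and 0 to 11 fell with 1 library left out. The cause of these shifts was not tested.

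Same-numbered GF and CG pigs did not deviate together (r of -0.015 to -0.001 over transcripts), so the numbers do not pair them. With the replicate number as a block, 249 called transcripts were higher in GF pigs and 303 were lower, 17 genes were higher and 18 lower, 0 regulator genes rose and 0 fell (24 higher and 38 lower at an unadjusted p under 0.05 in limma), and 10 members had both transcripts called. No share over all genes is given at that unadjusted p, and nothing is read from those counts. TPM keep no depth, so what depth limits cannot be given.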

Other observations

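LSM7, just outside the rule, was 1 of 15 genes in which kept transcripts of the same gene had equal TPM in every library of a group. In 13 of these genes they were equal in all 6 libraries, among them COL14A1, LIFR, STK39 and TUBB2B, and in COBLL1 and LSM7 in 1 group alone. None of the 33 genes with opposite transcripts was among the 15. For LSM7, the rising and the falling transcript had 4.17, 5.10 and 4.02 TPM each in CG pigs, while in GF pigs the rising one had 17.6, 23.0 and 21.0 TPM and the falling one was listed at 0. Whether equal values reflect reads that could not be told apart was not tested.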
